A study of Mus musculus with 2 samples.

Results

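Keratins are the intermediate filament proteins of epithelial cells, and their transcripts were read here in fetal mouse ear at E18.5. The members were the 52 genes whose symbol is Krt followed by a number and an optional letter, of 19938 genes named on the array, each represented by its probe set of highest mean linear signal. Each keratin had exactly 1 such probe set. The study hybridised 1 array of wild-type BALB/c fetal ear and 1 array of BALB/c fetal ear null for Myf5 and Myod1 (the double knockout), which encode transcription factors that direct cells into the skeletal muscle lineage. The series' title gives the role of skeletal muscle in ear development as its subject. The labels give no detail of the alleles in the double knockout, the part of the ear taken, its dissection or the number of fetuses behind each array.

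A keratin filament needs a type I and a type II keratin in equal amounts, so the genes are expressed in fixed couples that change with the kind of epithelium. Cells of the basal layer of skin make Krt5 and Krt14. Cells that leave that layer switch to Krt1 and Krt10, stratified mucosa such as that of mouth and oesophagus makes Krt4 and Krt13 instead, and single-layered epithelia of glands and ducts make Krt8 and Krt18. A further large group forms the hair shaft and its root sheath. The members were therefore sorted into 3 basal, 11 suprabasal, 4 stress-associated, 5 simple and 23 hair keratins, with 6 left unclassed.

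The sequence just upstream of the transcription start is shown for keratins of these programmes that differed in their response: Krt10 of the suprabasal layers, Krt5 of the basal layer, and Krt8 with Krt18 of simple epithelium. Each line holds the 250 bases before the start on the gene's own strand, from RefSeq on GRCm38.p6, and capitals mark matches to 4 motifs searched on both strands. The motifs were the TATA box (TATAAA), the AP-1 site (TGANTCA), the AP-2 site (GCCNNNGGC) and the E-box CAGCTG. The windows are chr11:99389365-99389614 on the minus strand for Krt10, chr15:101712906-101713155 on the minus strand for Krt5, chr15:102004343-102004592 on the minus strand for Krt8 and chr15:102027966-102028215 on the plus strand for Krt18.
Krt10: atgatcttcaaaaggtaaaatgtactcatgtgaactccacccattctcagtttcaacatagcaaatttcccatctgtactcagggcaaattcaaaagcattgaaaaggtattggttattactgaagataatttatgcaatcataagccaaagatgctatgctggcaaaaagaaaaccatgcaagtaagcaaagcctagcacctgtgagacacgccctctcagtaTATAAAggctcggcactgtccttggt
Krt5: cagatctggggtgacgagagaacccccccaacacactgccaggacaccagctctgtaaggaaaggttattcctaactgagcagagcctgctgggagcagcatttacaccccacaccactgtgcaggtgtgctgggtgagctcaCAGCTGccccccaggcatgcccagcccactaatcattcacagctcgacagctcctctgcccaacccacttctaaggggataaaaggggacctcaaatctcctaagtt
Krt8: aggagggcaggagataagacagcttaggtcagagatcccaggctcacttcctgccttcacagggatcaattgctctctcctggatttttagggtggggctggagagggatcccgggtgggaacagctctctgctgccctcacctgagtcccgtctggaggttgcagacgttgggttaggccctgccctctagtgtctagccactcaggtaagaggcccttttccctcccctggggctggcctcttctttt
Krt18: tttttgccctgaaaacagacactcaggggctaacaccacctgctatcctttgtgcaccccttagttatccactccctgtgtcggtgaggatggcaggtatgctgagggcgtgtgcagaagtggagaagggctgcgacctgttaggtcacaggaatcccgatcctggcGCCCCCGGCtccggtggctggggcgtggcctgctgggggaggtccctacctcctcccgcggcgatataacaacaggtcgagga

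The Krt10 window held a TATA box whose first base lies 26 bases before the start. The Krt5 window held the E-box, 107 bases before the start, and the Krt18 window an AP-2 match, 83 bases before it. Over the keratins, 36 genes with 37 listed starts had a window, and Krt1 was not among them. A TATA box was found in 17 of these 37 windows (45.9%), against 12.4% of the 32851 windows of all genes. Of the 17, 13 belonged to the 18 windows of hair keratins and 3 to the 10 of suprabasal keratins, whereas the 2 windows of basal keratins held 0. The AP-1 site was in 2 keratin windows (5.41%, against 6.75% of all), the AP-2 site in 5 (13.5%, against 13.7%) and the E-box in 3 (8.11%, against 13.0%). These matches describe letters only.

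The values are log2 signals as deposited, and the number of arrays, 1 per genotype, limits the precision of every value, with no test across samples possible. Each array's median over all 35557 probe sets, 5.65 for the wild-type array and 5.70 for the double-knockout array, served as a floor, to which lower values were raised before subtraction. Folds with a floored side are lower bounds, written "at least". Exceptions are genes above the floor in the wild type alone by less than 0.0542, the gap between the floors. Flooring puts these above 0 whichever way they read. Of the targeted genes, Myod1 read 6.95 in wild-type and 6.38 in double-knockout ear, and Myf5 read 5.94 and 5.25, the latter below the floor; no label says whether these probe sets lie in the deleted parts. The otoconial protein gene Oc90 of the inner ear read 11.28 and 11.26. The summed linear signal of 8 skeletal muscle genes was 25895 in wild-type and 413 in double-knockout ear. In RNA of whole tissue, fewer cells of a type and less RNA per cell cannot be told apart.

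Among the keratins, Krt1 and Krt10 were higher in the double knockout, and Krt17, Krt13 and Krt4 read lower. The simple keratins Krt8, Krt18 and Krt7 were slightly higher, with log2 differences of 0.44, 0.48 and 0.33. Of the basal keratins, Krt5 and Krt15 differed by 0.05 and 0.18, and Krt14 by -0.33. Of the 52 members, 18 lay above the floor on at least 1 array: 12 on both, 4 in the double knockout alone and 2 in the wild type alone. Of these 18, 2 were at least 2-fold higher in the double knockout and 0 at least 2-fold lower. Over all 12458 genes that passed the floor on 1 or both arrays, 0.482% were at least 2-fold higher and 1.71% at least 2-fold lower. At 1.5-fold, 2 keratins were higher and 1 was lower, with 2.25% and 3.62% of all genes. At 3-fold, 2 were higher and 0 lower, with 0.128% and 0.963% of all genes. The median difference was 0.19 over the 18 keratins and -0.01 over all 12458 genes. Of the 18, 13 were above 0, as were 48.0% of all genes. The 4 keratins above the floor in the double knockout alone could only come out above 0. The 2 above it in the wild type alone could not exceed 0.0542, the gap between the floors. The same filter acts on the share over all genes.

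**Figure D1:**
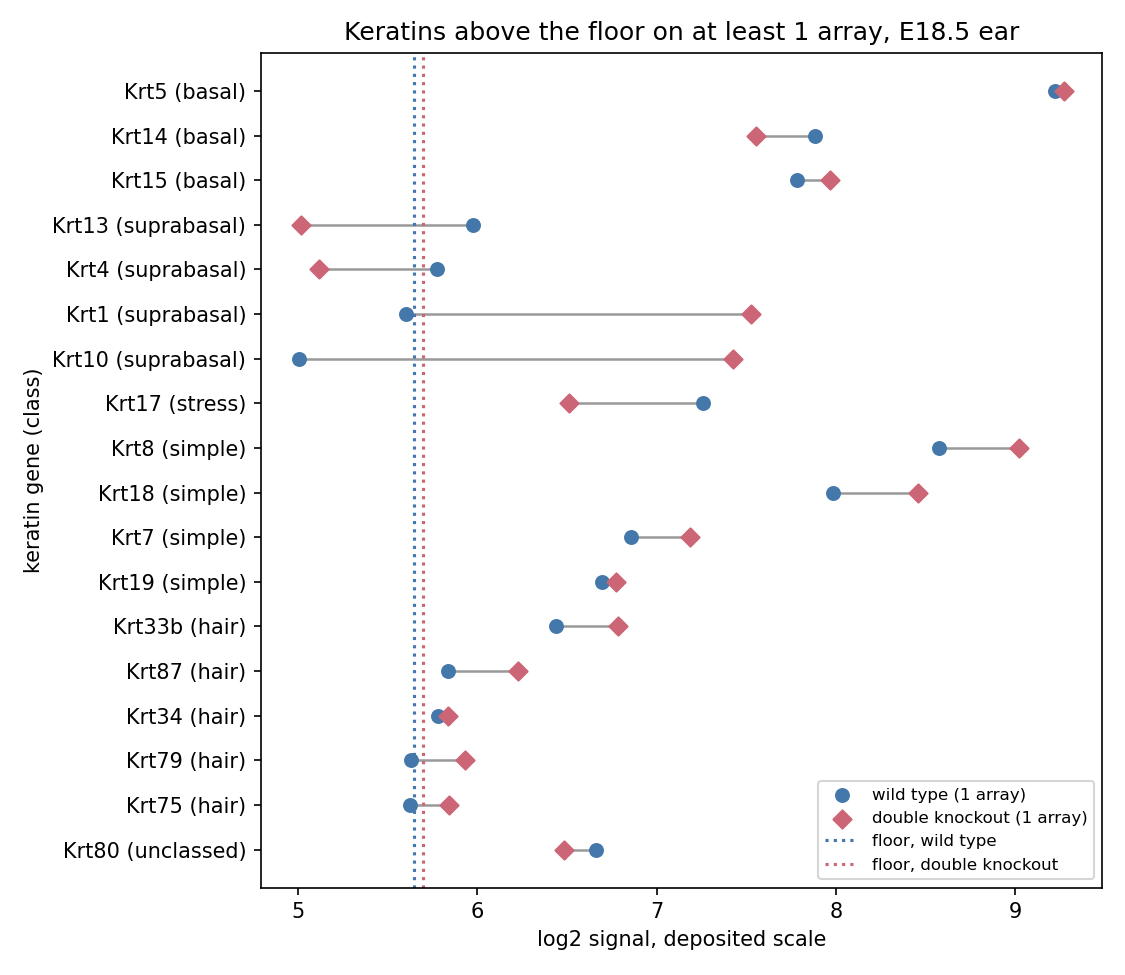
Log2 signal of the 18 keratins above the floor on at least 1 array, by class, with the wild-type array as circles and the double-knockout array as diamonds; dotted lines mark the floors of 5.65 and 5.70. Krt1 and Krt10 start below the floor in the wild type and reach 7.52 and 7.42 in the double knockout, while Krt5 stays at 9.22 and 9.27.

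The keratins of differentiating epidermis stood furthest from 0. Krt1, the type II keratin of spinous cells (probe set 10432852), read 5.60 in wild-type and 7.52 in double-knockout ear. Its wild-type value lay 0.05 below the floor, so the fold is a bound: at least 3.67-fold higher. Its type I partner Krt10 (probe set 10390831) read 5.01 and 7.42, at least 3.43-fold higher, and 2.42 apart on the log2 scale before flooring. Both keratins of this couple were thus below the median on the wild-type array and well above it on the double-knockout array, at the 77.7th percentile of all probe sets for Krt1 and the 76.3rd for Krt10. With the floor raised to the 75th percentile of each array the differences were 0.15 for Krt1 and 0.05 for Krt10, and 0 keratins passed 2-fold, because both double-knockout signals lie just above that floor.

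Of the other suprabasal keratins, 7 were below the floor on both arrays, where a shared rise cannot be read after flooring. Another 2 were above it in the wild type alone. Krt2, a keratin of the uppermost living layers, read 3.43 and 4.02, and Krt77, a relative of Krt1, read 4.87 and 5.07, below the floor on both arrays. Before flooring Krt2 differed by 0.60, and the median over the 34 keratins below the floor on both arrays was 0.27. Krt78 and Krt24, also of upper layers, and Krt9, of palm and sole, were likewise below it, with 4.62 and 4.78, 4.0 and 4.21, and 3.40 and 3.47. The keratins of stratified mucosa pointed the other way. Krt4 read 5.78 in wild-type and 5.12 in double-knockout ear, and its partner Krt13 read 5.98 and 5.02, so both were just above the floor in the wild type and below it in the double knockout. As bounds these are at least 1.06-fold and at least 1.21-fold lower; without a floor the differences were -0.66 and -0.96. Krt76, of the hard palate, read 3.46 on both arrays, and Krt12, of the cornea, 4.81 and 5.21, all below the floor. The median over the 4 suprabasal keratins above the floor, 0.85, therefore falls between a couple above 3-fold and a couple below 0 and describes neither.

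Basal keratins were read well above the floor on both arrays. Krt5 (probe set 10432785) read 9.22 and 9.27, a difference of 0.05, and Krt15, also of the hair follicle bulge, read 7.78 and 7.97, a difference of 0.18. Krt14, the type I partner of Krt5, went the other way, with 7.88 and 7.55, a difference of -0.33; 9.17% of all genes were as low or lower. The members of the basal couple thus differed in opposite directions, Krt14 by about the size seen for the simple keratin Krt7, 0.33. The summed linear signal of the 3 basal keratins was 1053 in wild-type and 1056 in double-knockout ear. Set against Krt5 within the same arrays, Krt1 was higher by at least 1.83 and Krt10 by at least 1.73 on the log2 scale.

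Of the keratins of wounded, rapidly growing or appendage epithelium, only Krt17 lay above the floor. It read 7.26 in wild-type and 6.51 in double-knockout ear, 1.68-fold lower, the largest difference in this direction after flooring among the 18 keratins; 2.49% of all genes were as low or lower. Krt6a (5.05 and 5.12), Krt6b (4.03 and 4.12) and Krt16 (3.19 and 3.67) were below the floor on both arrays. Krt14, Krt16 and Krt17 are close relatives in sequence, as are Krt6a and Krt6b, and the probes were not available to tell how far their signals mix. Of the unclassed keratins, Krt80 read 6.66 and 6.48, a difference of -0.18, and the other 5 (Krt23, Krt42, Krt88, Krt90 and Krt222) were below the floor on both arrays, with 4.41 to 5.32 in wild-type and 4.98 to 5.39 in double-knockout ear.

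The 4 simple keratins above the floor all read slightly higher in the double knockout, none by 2-fold, and their median difference was 0.39. Krt8 (probe set 10432918) read 8.58 in wild-type and 9.02 in double-knockout ear, 1.36-fold higher, and its partner Krt18 read 7.98 and 8.46, 1.39-fold higher. Differences as high or higher than these were seen in 4.48% and 3.72% of all genes. Krt7, a keratin of ducts and glands, read 6.86 and 7.19, a difference of 0.33, and Krt19, found in ducts and in many embryonic epithelia, read 6.69 and 6.77, a difference of 0.08. Krt20, of the gut lining, was below the floor with 3.67 and 3.83. The summed linear signal of the 4 was 853 in wild-type and 1127 in double-knockout ear, a ratio of 1.32.

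Hair keratins were mostly below the floor: 18 of 23 on both arrays, from Krt26 at 2.99 and 3.32 to Krt27 at 4.92 and 5.22. These 18 included the inner root sheath keratins Krt25 (4.42 and 4.49) and Krt71 (4.73 and 5.10), and Krt31 and Krt35 of the shaft (4.31 and 4.80, 4.38 and 4.55). The 5 above it had a median difference of 0.29. Krt33b, a shaft keratin, read 6.44 and 6.78, Krt87 read 5.84 and 6.23, and Krt34 read 5.78 and 5.83. Krt79, of the follicle opening, read 5.63 and 5.93, and Krt75, of the companion layer, 5.62 and 5.84, each crossing the floor by a small step. All 5 differences were above 0 on the deposited scale, from 0.05 to 0.39. Krt79 and Krt75 passed the floor in the double knockout alone, so the filter fixed the sign of their floored differences. The difference of Krt34 turned to -0.03 when the trend with signal was removed by loess. Krt33b and Krt33a are close relatives in sequence, and Krt33a read 4.20 and 4.99. Krt74 is listed by RefSeq as a transcribed pseudogene and read 3.53 and 3.90.

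Signals below the floor were in general higher on the double-knockout array, in the same direction as the small differences of hair and simple keratins. Over the 7480 genes below the floor on both arrays the median difference before flooring was 0.13, with 64.9% above 0. Over the 34 keratins below it on both arrays the median was 0.27, and 33 of 34 were above 0, the exception being Krt76 with the same value on both. That value is 1 of 1227 identical to the last digit on both arrays, 3.45% of probe sets. Before flooring, the largest differences among these 34 were those of the hair keratin Krt33a at 0.79 and of Krt88 at 0.71. On the deposited scale the medians of hair and simple keratins above the floor were 0.29 and 0.39. With the trend with signal removed by loess, these medians were 0.20 and 0.39. Beyond this, the part that the shift of low signals had in the keratin values was not tested.

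**Figure D2:**
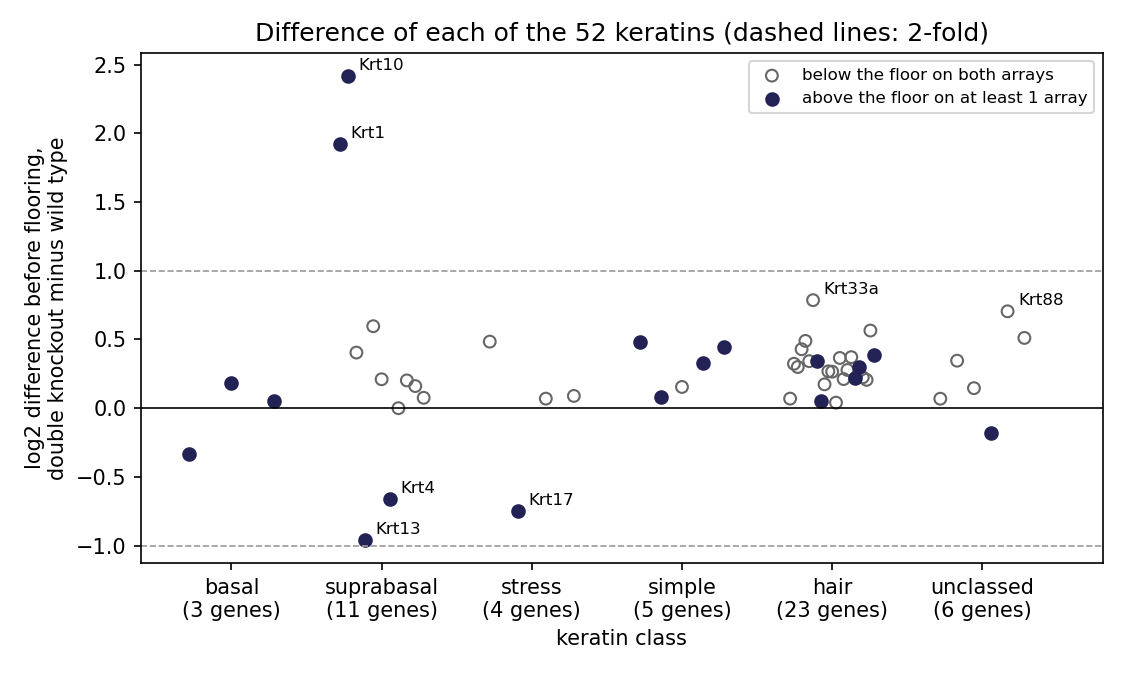
Log2 difference (double knockout minus wild type, before flooring) of each of the 52 keratins by class; filled points were above the floor on at least 1 array, open points below it on both, and dashed lines mark 2-fold. Krt10 at 2.42 and Krt1 at 1.92 lie past 2-fold, and open points lie above 0 in every class that holds any, except Krt76 at 0.

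Mouse keratins lie in a type I cluster on chromosome 11, here 27 members, and a type II cluster on chromosome 15, here 24 members with the type I gene Krt18 at its edge; Krt74, a pseudogene, is not counted in the order. Whether position grouped the differences around Krt1 and Krt10 could not be read, because their direct neighbours were below the floor on both arrays. Krt10 lies between Krt28 and Krt12, which were below the floor on both arrays (3.08 and 3.51, 4.81 and 5.21). Krt1 lies between Krt2 and Krt77, both also below it. Before flooring, Krt28, Krt12, Krt2 and Krt77 differed by 0.43, 0.40, 0.60 and 0.20. The median over the 34 keratins below the floor on both arrays was 0.27. Krt8 and Krt18, by contrast, are direct neighbours as well as partners, and differed by 0.44 and 0.48. Krt16 and Krt17 are neighbours of which Krt17 alone was above the floor, and Krt14 next to them read slightly lower in the double knockout.

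**Figure D3:**
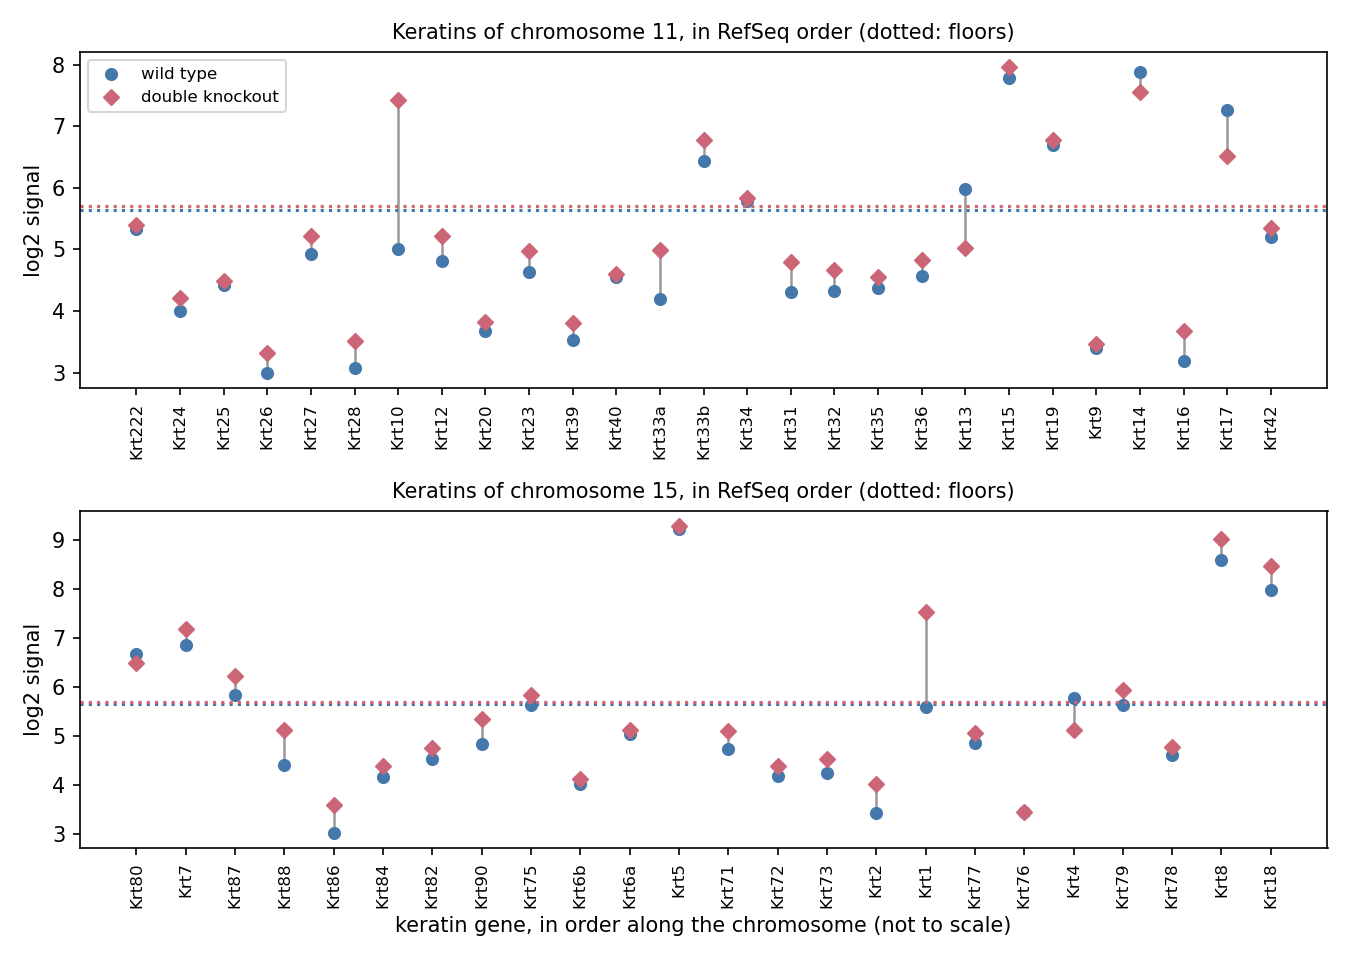
Log2 signal of the keratins of chromosome 11 and of chromosome 15 in the order of their genes along the chromosome, not to scale; circles are the wild-type array, diamonds the double-knockout array and dotted lines the floors. Krt10 and Krt1 rise above neighbours that stay below the floor, and Krt8 and Krt18 at the end of the second panel shift together.

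Other genes of the keratinocyte were set beside the keratins. Of 29 genes of the cornified envelope, the protein shell of dead surface cells, 22 were below the floor on both arrays. Among these were Lor, which encodes loricrin (4.89 and 5.47), Ivl, which encodes involucrin (3.58 and 4.11), and Krtdap (5.24 on both). Of the other 7, 1 was at least 2-fold higher and 0 lower, against 0.482% and 1.71% of all genes. The median of the 7, 0.04, is the floored value of Tgm1, which read lower in the double knockout, 5.66 and 5.56. Hrnr, which encodes the filaggrin relative hornerin, read 5.22 and 6.98, at least 2.52-fold higher. Sprr1a and Asprv1 differed by -0.34 and -0.06. Like Krt1 and Krt10, Hrnr was below the floor in the wild type and above it in the double knockout. The filter fixes the direction of genes with this pattern, so the shared direction adds no support. Sbsn, at 5.30 and 5.73, crossed the floor in the same way and was at least 1.06-fold higher.

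Genes of cell attachment, to which keratin filaments are anchored, were all within 2-fold where above the floor, as were most of all genes. Over all 12458 genes, 0.482% were at least 2-fold higher and 1.71% at least 2-fold lower. Of 13 desmosome genes, 5 were below the floor on both arrays. All 8 desmosome genes above the floor were within 2-fold, with a median of 0.05, and the plakoglobin gene Jup, Perp and Dsp, which encodes desmoplakin, differed by 0.04, 0.05 and -0.08. All 10 genes of hemidesmosomes and basement membrane were within 2-fold, with a median of -0.08. Itga6, an integrin subunit of basal cells, differed by -0.05, Cd151 by -0.09 and Dst, the anchor of keratin filaments at the basal membrane, by -0.33. Plec, which encodes plectin, another anchor of these filaments, read 7.77 and 6.98, 1.72-fold lower, the lowest of the list; it was named after its values were seen. Of the transcription factors and other regulators of epidermis, 9 were above the floor and within 2-fold, with a median of 0.01. That median is the floored value of Grhl3, which read lower in the double knockout, 5.69 and 5.53. Klf5, Gata3 and Klf4 differed by -0.21, -0.02 and -0.34. Trp63, the master regulator of stratified epithelium, read 6.72 and 6.60.

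Genes listed under simple epithelium shared the direction of the simple keratins. All 13 above the floor were above 0, against 48.0% of all genes, with a median of 0.24. All 13 were also within 2-fold, as were most of all genes. Whether these genes are restricted to simple epithelium was not tested. The adhesion molecule Epcam read 7.45 and 7.92, a difference of 0.47, Spint2 differed by 0.37 and Cdh1, which encodes E-cadherin, by 0.18. Genes of salivary secretion, a list partly chosen from large differences seen earlier on these arrays, had a median difference of 2.86. Of the 10 above the floor, 8 were at least 2-fold higher and 0 lower, against 0.482% and 1.71% of all genes. Only 2 of the 10 were above the floor on both arrays. The others passed it in the double knockout alone, so the filter fixed their direction. The parotid secretory protein gene Bpifa2 read 4.09 and 12.47, at least 113-fold higher, and the list's summed linear signal was 464 in wild-type and 11335 in double-knockout ear. Smgc and Prol1 were at least 42.2-fold and 21.4-fold higher, and Pip and Lpo at least 15.6-fold and 8.0-fold. The salivary list differed in the same direction as Krt7, Krt8 and Krt18, a direction that the filter fixed for most of its members. The list's part in the values of these keratins, or in those of Krt1 and Krt10, was not tested.

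Hair genes other than keratins gave small differences. Of 44 keratin-associated proteins, which crosslink the keratins of the hair shaft, 37 were below the floor on both arrays, and the 7 above it were within 2-fold with a median of 0.37. Krtap5-3 read 6.86 and 7.57, Krtap17-1 read 6.70 and 7.23, and Krtap5-1 read 6.36 and 6.65. Of the 15 hair follicle genes 7 were above the floor, with a median of 0.22. Of these 7, 1 was at least 2-fold higher, against 0.482% of all genes. Lhx2, a transcription factor of follicle stem cells and also of forebrain, read 6.60 and 8.19, 3.02-fold higher. Sox9, Lgr5 and Cux1 differed by 0.33, -0.32 and -0.15. The shaft regulators Hoxc13 and Foxn1 (3.51 and 3.76, 4.51 and 4.95) were below the floor on both arrays, as most hair keratins were.

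**Figure D4:**
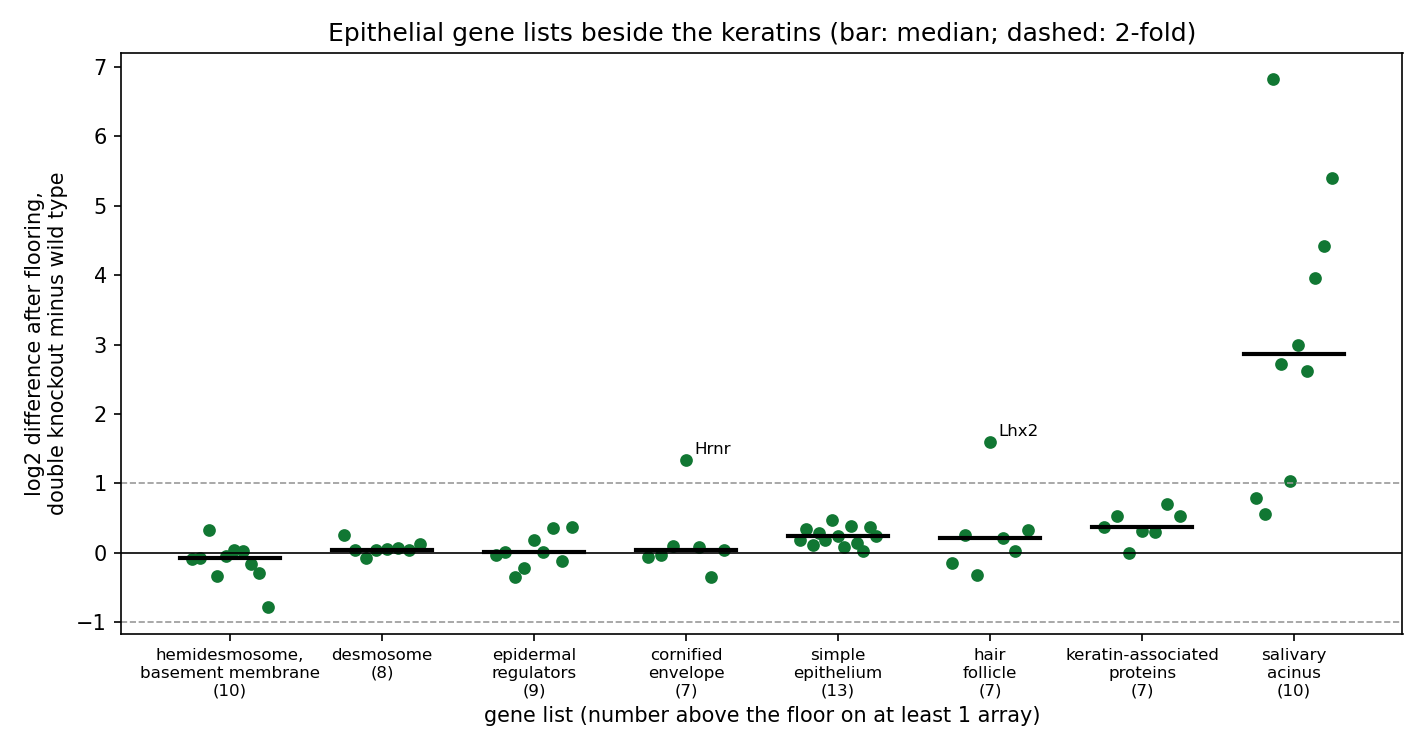
Log2 difference after flooring (double knockout minus wild type) of the members of 8 epithelial lists that passed the floor on 1 or both arrays; each point is a gene, bars are list medians and dashed lines mark 2-fold. Medians of the 7 lists other than the salivary list run from -0.08 to 0.37, and that of the salivary list is 2.86; a list of ciliated epithelium, with 2 genes above the floor and a median of -0.72, is not drawn.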

How the data were processed

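Total RNA of 2 samples was measured on Affymetrix arrays from 6 µg of RNA, per the labels. The deposited values are log2 signals, 1 per probe set and array; MAS5 is named in the submitters' processing notes, the log base was read from their range (0.75 to 13.27), with genome build and scaling not given in the sources used here. MAS5 uses mismatch probes, which this kind of gene array lacks, so how the authors made these log2 values, and hence what the floor means in signal, is not settled. Probe sets with exactly 1 gene in the platform annotation (21789) gave 19938 genes, all 52 keratins matching RefSeq by Entrez identifier. Floors and differences were computed with pandas 2.3.3 in Python 3.11.15, on the deposited scale with 2-fold as threshold, and checked on simulated data. The simulation changed only genes well above the floor, so it did not exercise floored bounds such as those of Krt1 and Krt10. Its noise was smaller than the standard deviation of differences over genes above the floor on both arrays, 0.34. Text names all keratins above the floor on at least 1 array and some of those below it on both. Per other list, it names the 3 members of highest signal and up to 5 per direction past 2-fold. Also named are measured filament genes outside the family and some cell type markers from a separate marker list (Lor, Ivl, Krtdap, Trp63, Hoxc13, Foxn1). Plec, Sbsn, Tgm1 and Grhl3 were named after their values were seen. Members and lists were chosen with earlier results of these data known. Alternatives were 3 scalings, 4 treatments of low signals, the median over probe sets and 2 thresholds. With 1 array per group no p-value is given.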

Additional observations from a re-analysis of the deposited data

How the results depend on the processing

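Under every alternative run except the floor at the 75th percentile, the number of keratins at least 2-fold higher was 2. At that floor the number was 0, because 7 keratins remain and the double-knockout signals of Krt1 and Krt10 lie near it. The median over probe sets could not change any keratin value, since no keratin had several probe sets. The number at least 2-fold lower was 0 throughout except at the 1.5-fold threshold, where it was 1, Krt17. The suprabasal median moved from 0.85 to 0.21 with the floor at the 25th percentile (8 members), 0.10 at the 75th (2 members), 0.63 with no floor and 0.49 with a pseudocount, the median linear signal of each array. At the 25th percentile more low members enter, and at the 75th only Krt1 and Krt10 are left; without a floor Krt4 and Krt13 lie further below 0, and the pseudocount brings Krt1 nearer to 0. Medians of basal keratins ran from 0.05 to 0.08, of simple keratins from 0.33 to 0.46 and of hair keratins from 0.18 to 0.31; the last had no member at the 75th percentile. Sizes were judged against 0.168, the standard deviation between probe sets of the same gene over 619 genes, a measure of probe noise only. No paired analysis was possible because each group holds 1 array.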

Other observations

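Intermediate filament genes outside the keratin family were read on the same arrays. Of 15, 12 were above the floor on both arrays, 2 read at least 2-fold below the wild type and 0 lay 2-fold above it, with a median of -0.19. Des, the filament protein of muscle, read 10.70 and 6.21, 22.4-fold lower, and Nes, which encodes nestin of progenitor cells and young muscle fibres, read 8.68 and 7.37, 2.48-fold lower. Vim, which encodes vimentin of connective tissue cells, read 12.12 and 11.92, and the lamin gene Lmna 8.46 and 8.07. The lamins Lmnb1 and Lmnb2 differed by 0.11 and -0.11, and Synm, a partner of desmin, by -0.20. Of the neuronal filaments, Ina read 9.63 and 10.14, Prph read 8.75 and 8.23, and Nefl, Nefm and Nefh differed by -0.17, -0.02 and -0.04.

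Further lists fixed with the keratins gave these values. Of 11 genes of ciliated epithelium 9 were below the floor on both arrays, among them Ccdc39 (5.48 and 5.66), and the median of the other 2 was -0.72. Tppp3 read 10.43 and 8.96, 2.76-fold lower, and Foxj1, the regulator of motile cilia, 5.79 and 5.83. All 7 adipocyte genes were above 0, against 48.0% of all genes, with a median of 0.96. Of these 7, 3 were at least 2-fold higher, against 0.482% of all genes: Retn differed by 1.79, Ucp1 by 1.26 and Cidea by 1.19. Fabp4 and Lpl differed by 0.47 and 0.43. All 8 skeletal muscle genes were at least 2-fold lower, against 1.71% of all genes, with a median of -5.58. Actc1, Acta1, Tnnt3 and Myl1 were 93.2-fold, 88.3-fold, 55.2-fold and 48.5-fold lower, and Myh8 at least 47.2-fold.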
